A study of Danio rerio with 3 samples.

Results

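The 2 populations that carry only 1 of the reporters, gata2a- runx1+ and gata2a+ runx1- cells, were compared gene by gene. Members were all genes of the annotation with at least 5 RPM (reads of a gene scaled by the library's total over genes) in either library, which gave 9356 of 32057 genes, of which 9154 had a symbol. Genes were ranked by the log2 ratio of RPM + 1, in which a positive value means a higher level in gata2a- runx1+ cells. The level of each gene is given in RPM as gata2a- runx1+ first and gata2a+ runx1- second. RPM does not correct for transcript length, so a gene was compared between the libraries and never with another gene.

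Both populations came from the kidney of adult zebrafish with the gata2a:GFP transgene and the runx1:mCherry transgene, and the labels give the genotype otherwise as wild type. mCherry is driven by an enhancer of the mouse Runx1 gene, and it therefore reports that enhancer and not the zebrafish transcript. Cells were sorted from the low side scatter fraction, from which granulocytes are largely left out, after lysis of erythrocytes. The labels describe gata2a- runx1+ cells as primed toward erythroid or myeloid fates, and gata2a+ runx1- cells as primed toward lymphoid fates. The number of fish and any pooling are not given in the sources used here. There was 1 library per population, so no difference has a replicate check and no p-value is given for a gene.

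The zebrafish kidney is the site of adult blood formation, as bone marrow is in mammals. Gata1, Klf1, and Tal1 drive the erythroid program of hemoglobin, heme, and membrane proteins, and a related program gives rise to thrombocytes, the nucleated counterpart of platelets. Pax5 and Ebf1 set the B cell program, and Pu.1 (encoded by spi1b) and the C/EBP factors set the myeloid one. The kidney also holds endothelial and stromal cells, and gata2a is known to be active in endothelium as well as in blood cells.

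The libraries had 8205803 and 8094670 reads, and 1 read was worth 0.122 and 0.124 RPM. Detection was taken to begin at 3 reads, or 0.366 and 0.371 RPM. Intervals in the text are exact 95% intervals of the ratio of reads, and they cover counting error only, since amplified copies are not independent molecules. A fold given as "at least" is measured against 3 reads for a gene without a read in the other library. It is not a 95% limit. For klf1 it was 431-fold, where the lower 95% limit was 350-fold.

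The larger differences lay toward gata2a+ runx1- cells. Of the members, 1751 (18.7%) exceeded 2-fold toward gata2a- runx1+ cells and 2222 (23.7%) toward gata2a+ runx1- cells, while 5383 genes lay within 2-fold. These shares of all members are the background for the list counts below. At 8-fold the split was wider, with 190 genes (2.03%) against 566 genes (6.05%), and at 64-fold it was 19 against 57 genes. The median log2 ratio over all members was 0.02, and the middle 90% ran from -3.21 to 2.1. The 2222 genes took 25.2% of the reads where they were higher and 5.15% of those of the other library. The 1751 genes took 15% of the reads where they were higher and 4.94% of those of the other library. In bulk RNA, fewer cells of a type and less RNA per cell cannot be told apart, and this holds for every difference below. The plot of both libraries shows the genes without a read in 1 library along its axes, 101 members without a read in gata2a+ runx1- cells and 303 without a read in gata2a- runx1+ cells.

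**Figure D1:**
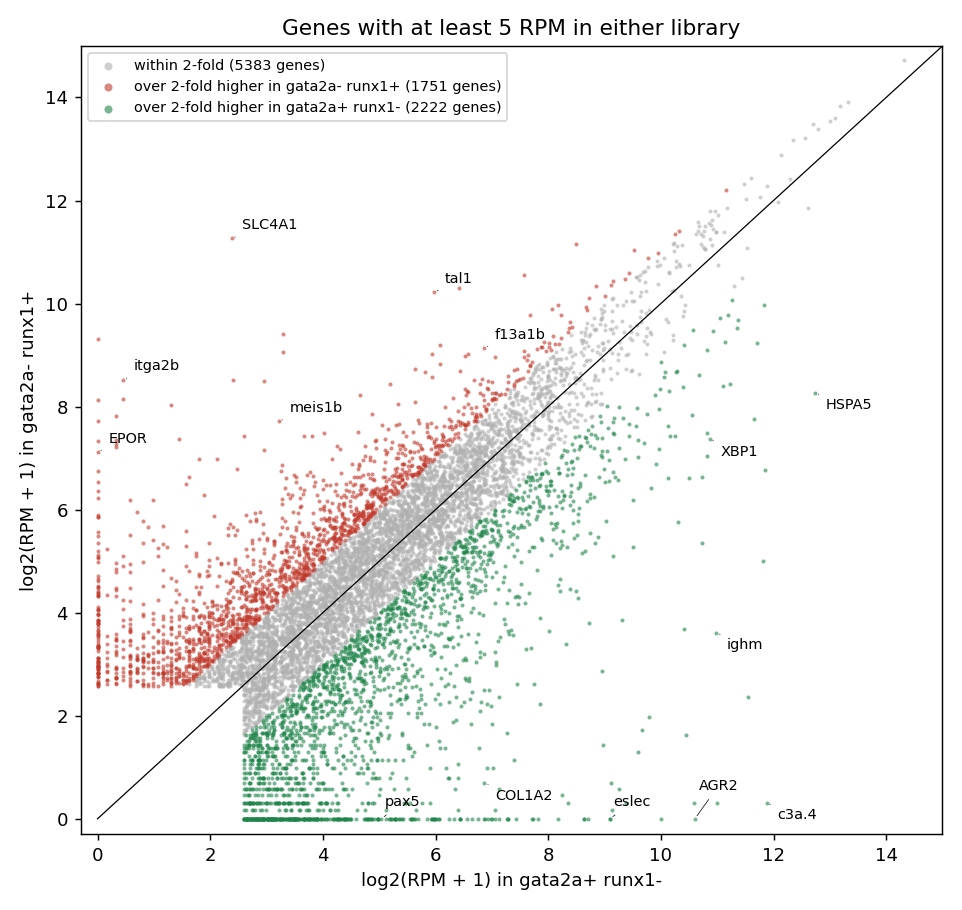
Level of each of the 9356 members in gata2a+ runx1- cells (horizontal axis) and gata2a- runx1+ cells (vertical axis), both as log2(RPM + 1), 1 library each. Red points are the 1751 genes over 2-fold higher in gata2a- runx1+ cells, green points the 2222 genes over 2-fold higher in gata2a+ runx1- cells, and the line marks equal levels.

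The gate was visible in gata2a itself. The transcript of gata2a (ENSDARG00000059327), the gene whose reporter defined the GFP gate, had a level of 11.8 RPM without GFP and 1354 RPM with GFP, 115-fold higher (93.8 to 141). The transcript of runx1 (ENSDARG00000087646) had 29 and 19 reads and stayed under the limit of 5 RPM, and the interval of its ratio, 0.816 to 2.84, includes 1. The paralog gata2b was at 17.2 and 11 RPM.

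Erythroid regulators were higher in gata2a- runx1+ cells. Of 15 members of the erythroid transcription factor list, 10 were over 2-fold higher in gata2a- runx1+ cells and 1 was over 2-fold lower, with a median log2 ratio of 1.51. klf1 (ENSDARG00000017400), the activator of adult globin and red cell membrane genes, was at 159.8 RPM and had no read in gata2a+ runx1- cells, at least 431-fold higher. gata1a, the factor that opens the erythroid program, was at 40.0 and 0 RPM. GFI1B, a transcriptional repressor needed in the erythroid and thrombocyte lineages, was at 11 and 0 RPM. The partners of these factors were read in both libraries. The level of tal1 was 1187 and 61.9 RPM (19.2-fold, 17.5 to 21), that of its bridging partner lmo2 was 201 and 56.6 RPM, and that of the Gata1 cofactor zfpm1 was 73.8 and 11.12 RPM. The exception was NFE2, a globin and thrombocyte regulator, at 53.6 and 367 RPM, 6.84-fold higher in gata2a+ runx1- cells.

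Genes of the red cell surface and its skeleton showed the widest gap of any list on this side. Of 12 members, 9 were over 2-fold higher in gata2a- runx1+ cells, and the list's median log2 ratio was 5.42. SLC4A1 (ENSDARG00000012881), the band 3 anion exchanger, was at 2463 and 4.20 RPM, 586-fold higher (419.5 to 847). RHAG, the Rh-associated glycoprotein, was at 279 RPM, the spectrin beta gene SPTB at 210.3 RPM, the adducin gene add2 at 73.6 RPM, and the tropomodulin gene TMOD4 at 91.5 RPM, and none of these 4 had a read in gata2a+ runx1- cells. The protein 4.1 gene epb41b was at 162 and 0.25 RPM. The receptor for erythropoietin, EPOR, which sustains erythroid progenitors, was at 138 and 0 RPM, at least 373-fold higher. On the other side of this list stood the carbonic anhydrase gene cahz, at 24.1 and 295 RPM, and the glycophorin gene GYPC, at 2.19 and 26.7 RPM.

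Heme and iron genes were mostly higher in gata2a- runx1+ cells. Of 13 heme members, 9 were over 2-fold higher there (median log2 ratio 1.98), and of 12 iron members, 6 were (median 1.09). Among the enzymes of heme synthesis, the ratio was 4.01-fold for ALAD, 12.6-fold for uros, and 9.52-fold for PPOX, and FECH, which inserts the iron, was at 6.46 and 0 RPM. ALAS1, the enzyme of the first step in all cells, was at 364 and 450.1 RPM, whereas alas2, its erythroid form, was listed at 0 in both libraries. Whether its reads were lost in counting cannot be told from the files, and the same holds for the globin genes listed at 0. HMOX1, which breaks heme down, was at 0.49 and 9.51 RPM. Of the genes of iron uptake, the transferrin receptor gene tfr1a was at 13.3 and 0 RPM, the reductase gene STEAP3 at 13.4 and 0 RPM, and the transporter gene slc11a2 at 517 and 94.9 RPM.

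Nearly all globin reads were in gata2a- runx1+ cells. hbaa1 was at 61.4 and 0.62 RPM, 99.4-fold higher (42.3 to 308), and hbaa2 at 14.5 and 0 RPM. Of the globin symbols listed, 53.8% matched a gene, so this list covers the family in part. Outside the list, 3 genes under the human symbol HBE1 (ENSDARG00000089087, ENSDARG00000069734, and ENSDARG00000097238), chosen after their values were seen, were at 40.1 and 0.74 RPM, at 21.7 and 0 RPM, and at 12.8 and 0.49 RPM. Globin genes have similar copies, so the split of reads among them is uncertain.

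Thrombocyte genes were higher in the same library. Of 14 members, 8 were over 2-fold higher in gata2a- runx1+ cells, against 3 in gata2a+ runx1- cells (median log2 ratio 1.41). itga2b (ENSDARG00000018687), which encodes CD41, was at 368 RPM and 3 reads in gata2a+ runx1- cells (992-fold, 339 to 4812). The genes of the von Willebrand factor receptor were also higher, GP1BB at 171 and 5.07 RPM and gp9 at 20.47 and 0 RPM. The level of f13a1b, a subunit of clotting factor XIII, was 564 and 115 RPM, and that of the prostaglandin synthase gene ptgs1 was 189 and 34.7 RPM. The 3 genes on the other side were NFE2, the ADP receptor gene P2RY12 (0.24 and 5.81 RPM), and a RASGRP2 gene (7.92 and 22.2 RPM). Another RASGRP2 gene (ENSDARG00000099092), under the limit, had 36 and 0 reads. mpl, the thrombopoietin receptor gene, was under the limit with 24 and 2 reads. The other listed genes under the limit were mixed. The ITGB3 genes had 34 and 39 reads and 20 and 2 reads, and vwf had 25 and 14 reads. The MAFG genes had 20 and 40 reads and 0 and 7 reads.

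**Figure D2:**
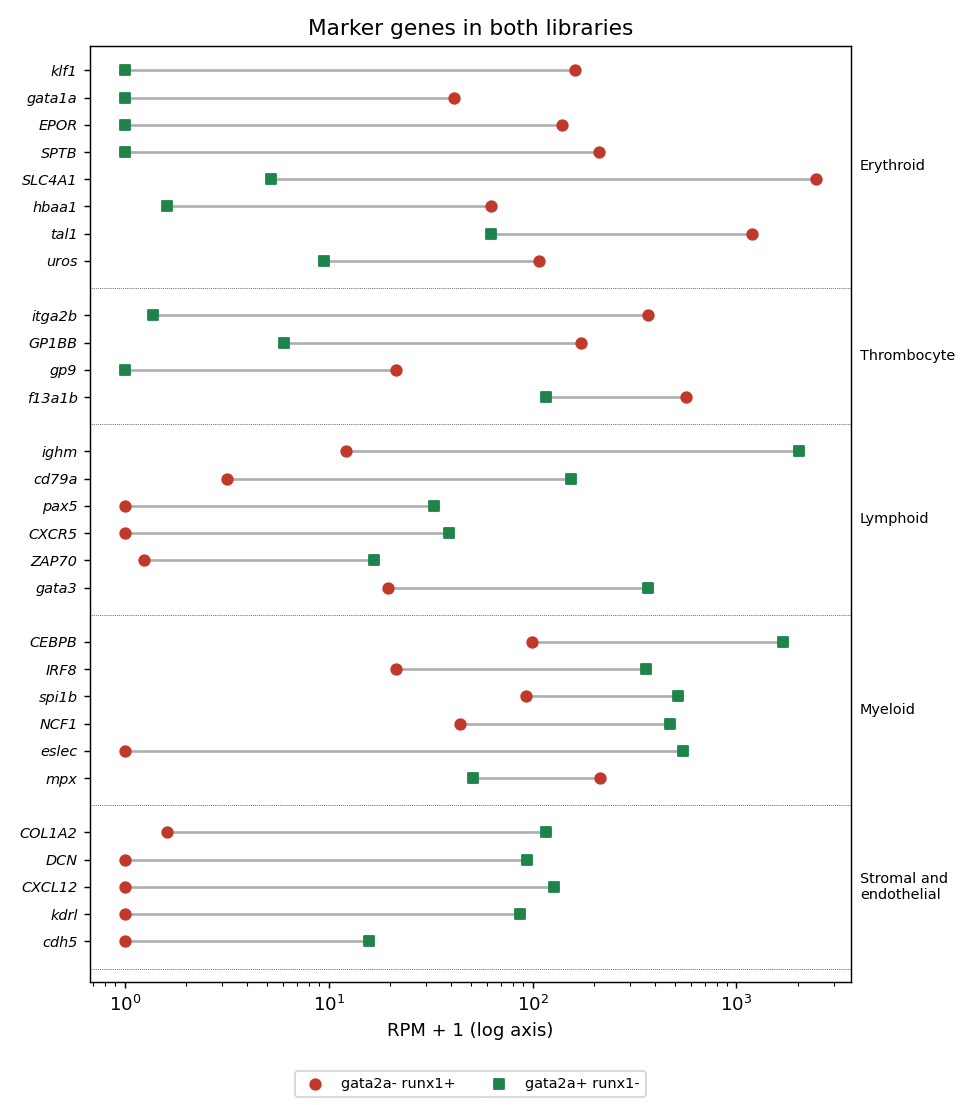
Level of marker genes in both libraries, as RPM + 1 on a log axis, with red circles for gata2a- runx1+ and green squares for gata2a+ runx1- cells (1 library each). The genes were picked from the gene lists and do not stand for whole lists. The erythroid and thrombocyte genes shown lie to the right in gata2a- runx1+ cells. The lymphoid, stromal, and endothelial genes shown lie to the right in gata2a+ runx1- cells, as do the myeloid genes shown except mpx. List members on the other side, such as NFE2, cahz, GYPC, P2RY12, EOMES, IRF4, and an FN1 gene, are not shown.

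Progenitor transcription factors were divided between the populations. Of 18 members, 8 were over 2-fold higher in gata2a- runx1+ cells, against 5 in gata2a+ runx1- cells. These were 44.4% and 27.8% of the list, beside 18.7% and 23.7% of all members, so the second share was near that of all members. The second share includes gata2a itself, whose reporter defined the GFP gate. On the first side were meis1b, a cofactor of Hox proteins (209.6 and 8.28 RPM, 25.3-fold, 19.8 to 32.8), the Ets factor gene FLI1 (519.6 and 60.2 RPM), sox4a (408 and 55.5 RPM), and MYC (424 and 48.7 RPM). On the other side, GFI1, a repressor needed in granulocytes and lymphocytes, was at 9.51 and 319 RPM (33.6-fold, 26.8 to 42.6) and CEBPA, the initiator of the granulocyte and monocyte program, at 228 and 1503 RPM. The second copies of some of these genes did not go with the first. myca was at 162 RPM in both libraries, meis1a was at 0.61 and 9.39 RPM, and gfi1aa, under the limit, had 15 and 16 reads. kita, the receptor for stem cell factor, was under the limit, with 39 and 2 reads.

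Genes of growth were higher in gata2a- runx1+ cells by small folds. All 76 cytosolic ribosomal protein genes were higher there, 25 of them over 2-fold, with a median log2 ratio of 0.94 and summed levels of 131998 and 77181 RPM. The lowest ratio among them was 0.01, of rps27l. All 41 members of the ribosome biogenesis list were also higher there, 24 of them over 2-fold (median 1.07). Among these, the helicase gene DDX21 was at 2708 and 1273 RPM, NOP58, which guides modification of ribosomal RNA, at 1101 and 422 RPM, and WDR43, a processing factor, at 874 and 297 RPM. Of 22 genes of nucleotide synthesis, 7 were over 2-fold higher there, against 0 in gata2a+ runx1- cells (median 0.76). The largest ratio of these was that of CAD, which starts pyrimidine synthesis, at 956 and 266 RPM (3.59-fold, 3.43 to 3.77).

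Cell cycle genes were higher in the same library. Of 41 members of the DNA replication list, 12 were over 2-fold higher in gata2a- runx1+ cells, against 0 in gata2a+ runx1- cells (median log2 ratio 0.47). The 12 were 29.3% of the list, beside 18.7% of all members. The subunits of the replicative helicase made up 5 of these 12, MCM2, MCM3, MCM4, MCM6, and MCM7, with ratios between 2.40-fold and 2.83-fold. CDT1, which loads that helicase, was at 63.0 and 15.2 RPM. Of 33 mitosis genes, 12 were over 2-fold higher in gata2a- runx1+ cells, against 0 in gata2a+ runx1- cells (median 0.77). These included mki67, the proliferation marker, at 325 and 121 RPM, the kinesin gene cenpe at 101 and 25.1 RPM, and the checkpoint kinase gene bub1 at 85.5 and 24.6 RPM. RRM2, the regulated subunit of ribonucleotide reductase, was within 2-fold with both of its copies lower in gata2a- runx1+ cells, at 57.4 and 96.4 RPM and at 55.9 and 97.2 RPM.

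**Figure D3:**
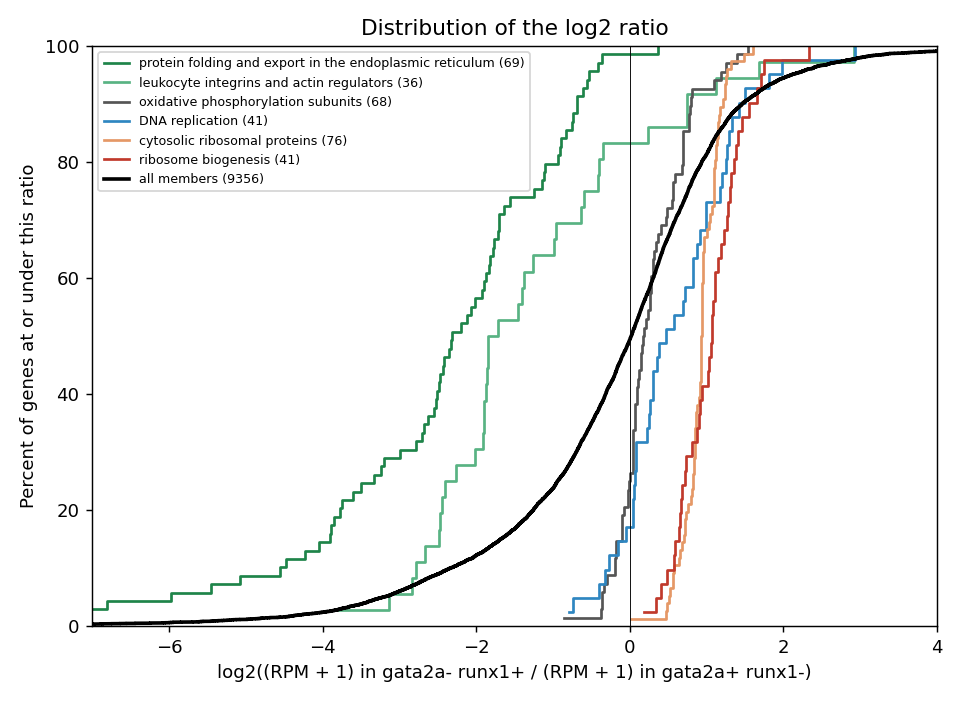
Share of genes (vertical axis, percent) at or under each log2 ratio of RPM + 1 (horizontal axis, positive when higher in gata2a- runx1+ cells) for 6 gene lists and for all members, 1 library per population. The ribosomal protein and ribosome biogenesis curves lie to the right of 0, the curve of the endoplasmic reticulum list lies to the left of 0 for 68 of its 69 genes, and the oxidative phosphorylation curve rises near 0.

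The 15 named genes with the highest ratios in gata2a- runx1+ cells were not all erythroid. They were led by hdr (ENSDARG00000004392), a death receptor gene of blood cells, at 639 and 0 RPM, at least 1724-fold higher. Of the others, SLC4A1, RHAG, SPTB, klf1, epb41b, and TMOD4 belong to the erythroid lists, EPOR to the cytokine receptors, and itga2b to the thrombocyte list. klf17, a Krüppel-like factor gene that the erythroid list also holds, was at 147 and 0.25 RPM. The remaining 5 were APLN, which encodes the peptide hormone apelin (284 and 0.37 RPM), the myristoyltransferase gene NMT1 (154 and 0.25 RPM), the small GTPase gene RAC3 (107 and 0 RPM), the growth hormone receptor gene ghrb (262 and 1.48 RPM, 176-fold, 101 to 342), and the lipoxygenase gene alox5b.3 (81.4 and 0 RPM). NMT1 and RAC3 each have a second member gene under the same symbol, and these copies were at 74.2 and 64.1 RPM and at 4.14 and 9.27 RPM.

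The 15 named genes with the highest ratios in gata2a+ runx1- cells were led by c3a.4 (ENSDARG00000093198), a copy of the complement C3 gene, at 2 reads and 3758 RPM (15418-fold, 4268 to 127320.0). AGR2 (ENSDARG00000070480), a disulfide isomerase of secretory cells, was at 0 and 1555 RPM, at least 4254-fold higher. Next to these were the intelectin gene itln1 (0.24 and 663 RPM), the cystatin gene cst14b.2 (0.12 and 564 RPM), a TIMP4 gene, which encodes a metalloproteinase inhibitor (2.07 and 1399.7 RPM), and the protease inhibitor gene spink2.7 (0 and 289 RPM). Of the mfap4 genes, a family known for its macrophage marker in zebrafish, mfap4.8 was at 4.14 and 2977 RPM, mfap4.6 at 0 and 418 RPM, mfap4.11 at 0.49 and 609 RPM, and mfap4.7 at 0.61 and 552 RPM. A VIM gene and krt94, for intermediate filament proteins, were at 0 and 395 RPM and at 0.24 and 326 RPM. The other 3 were teni.1 (0 and 1025 RPM), the chloride channel accessory gene clca5.2 (1.46 and 773 RPM), and eslec, a lectin gene placed here on the eosinophil list (0 and 546 RPM, at least 1493-fold higher). Several of these genes belong to tandem families with similar copies, for which the division of reads among copies is uncertain.

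Most genes of the machinery that folds and exports secreted proteins were higher in gata2a+ runx1- cells. This list was written after the values were seen, and its counts are a description. Of 69 members, 55 were over 2-fold higher in gata2a+ runx1- cells, against 0 in gata2a- runx1+ cells, with a median log2 ratio of -2.32 and summed levels of 7682 and 51857 RPM. The chaperone gene HSPA5 (BiP) was at 307 and 6823 RPM, 22.3-fold higher (21.4 to 23.2), and the isomerase genes PDIA4 and pdia2 were at 108 and 3687 RPM and at 31.1 and 3580.3 RPM. The regulators of this system were higher too, with XBP1, the factor of the unfolded protein response that plasma cells need, at 164 and 1863 RPM and CREB3L1 at 0 and 61.9 RPM. HERPUD1, of the degradation pathway, was at 52.9 and 1268 RPM. Parts of the export path that differed least were the oligosaccharyltransferase gene STT3B (45.3 and 58.4 RPM) and the cochaperone gene DNAJB9 (11.5 and 8.65 RPM), the single member that was higher in gata2a- runx1+ cells.

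Immunoglobulin and most B cell genes were higher in gata2a+ runx1- cells. All 28 immunoglobulin members were over 2-fold higher there, with summed levels of 11.9 and 3158 RPM, and their copies are similar enough that single values are uncertain. ighm (ENSDARG00000096355), the mu heavy chain, was at 11.2 and 2023 RPM (180.4-fold, 147 to 224), ighz, the heavy chain of fish IgZ, at 0 and 138 RPM, and the light chain gene igl4v8 at 0 and 208 RPM. Of 21 genes of the B cell receptor and its coreceptors, 16 were over 2-fold higher there, against 0 in gata2a- runx1+ cells (median log2 ratio -2.84). cd79a, the signalling chain of the receptor, was at 2.19 and 154 RPM, the tetraspanin gene cd37 at 0 and 65.5 RPM, and the adaptor gene blnk at 2.56 and 57.9 RPM.

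The B cell transcription factors were less uniform. Of 16 members, 11 were over 2-fold higher in gata2a+ runx1- cells, against 3 in gata2a- runx1+ cells (median log2 ratio -2.38). pax5, which keeps B cell identity, was at 0 and 31.9 RPM, EBF1 at 0 and 5.07 RPM, and pou2f2b, an octamer factor of immunoglobulin promoters, at 0.73 and 74.7 RPM. The 3 on the other side were IRF4 (10.1 and 1.24 RPM), BCL11A (25.4 and 10.6 RPM), and FOXO1 (16.3 and 4.82 RPM). The second Irf4 gene, irf4b, was at 0 and 19.6 RPM. The EBF1 member lay just over the limit, and another EBF1 gene, under it, had 1 and 0 reads. Genes that cut antigen receptor loci in lymphoid progenitors were scarcely read. rag1 had 0 and 32 reads, RAG2 had no read in either library, and all 6 members of the V(D)J recombination list, which are genes of general DNA end joining and base repair, lay within 2-fold.

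T and NK cell genes were low in level and mostly on the same side. Of 17 members, 13 were over 2-fold higher in gata2a+ runx1- cells, against 2 in gata2a- runx1+ cells (median log2 ratio -2.74). The receptor kinase gene ZAP70 was at 0.24 and 15.7 RPM, the interleukin 7 receptor gene il7r at 0.24 and 18.0 RPM, and gata3, the factor of T helper and innate lymphoid cells, at 18.5 and 369 RPM (19.9-fold, 16.9 to 23.6). Defining T cell genes were under the limit, with 0 and 2 reads for lck, 0 and 2 reads for cd4-1, and 0 and 7 reads for cd8a. The 2 genes on the other side were EOMES, a T-box factor of cytotoxic cells, at 89.1 and 1.98 RPM (45.1-fold, 27.6 to 79.3), and the perforin gene prf1.3, at 15.5 and 0 RPM.

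Myeloid genes were also higher in gata2a+ runx1- cells, although the label of gata2a- runx1+ cells names the myeloid fate. Of 24 macrophage and dendritic cell genes, 20 were over 2-fold higher in gata2a+ runx1- cells, against 1 in gata2a- runx1+ cells (median log2 ratio -2.28). IRF8, which directs monocyte and dendritic cell fates, was at 20.4 and 359 RPM, spi1b at 91.4 and 516 RPM, and the chemokine gene ccl35.1 at 1.71 and 56.7 RPM. Both IRF8 and spi1b also stand on the list of B cell transcription factors. The list held 48 genes, and several macrophage genes among them were under the limit. No read in either library was found for timd4, mertka, and the MPEG1 genes ENSDARG00000043093 and ENSDARG00000078569, and csf1ra had 0 and 25 reads. The counts are therefore those of the members and do not cover these genes. All 6 genes of the phagocyte NADPH oxidase were over 2-fold higher there, with NCF1 the farthest apart at 43.3 and 469 RPM (10.8-fold, 9.73 to 12.1). Both eosinophil and mast cell members were higher as well, eslec and the Fc receptor chain gene fcer1gl (9.02 and 61.0 RPM), with 57.1% of that list's symbols matched to a gene.

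Neutrophil genes were less uniform. Of 22 members, 13 were over 2-fold higher in gata2a+ runx1- cells, against 2 in gata2a- runx1+ cells (median log2 ratio -1.40). CEBPB was at 98.0 and 1690.0 RPM (17.2-fold, 16.1 to 18.5), the annexin gene ANXA1 at 8.41 and 109 RPM, and s100a10b at 1.22 and 167 RPM. The 2 genes on the other side were mpx, the myeloperoxidase of neutrophil granules, at 214 and 50.3 RPM (4.26-fold, 3.82 to 4.75), and il1b, at 5 and 1.48 RPM. The astacin gene npsn, another granule gene, was at 292 and 361 RPM. The lysozyme gene lyz had 4 and 5 reads.

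Receptors that guide leukocytes to tissues were on 1 side without exception among the members. All 15 chemokine and homing receptor genes were higher in gata2a+ runx1- cells, 14 of them over 2-fold (median log2 ratio -2.57). A CXCR4 gene (ENSDARG00000057633), the receptor for the marrow chemokine CXCL12, was at 6.34 and 496 RPM (78.2-fold, 59.5 to 105), and its second copy cxcr4b was at 412 and 1249 RPM. CXCR5, which guides B cells to follicles, was at 0 and 38.0 RPM and CCR9, a receptor of gut and thymus homing, at 94.8 and 603 RPM. The cytokine receptors were less uniform, with 7 of 14 over 2-fold higher in gata2a+ runx1- cells and 2, EPOR and a TGFBR2 gene (12.9 and 5.56 RPM), over 2-fold higher in gata2a- runx1+ cells.

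Genes of leukocyte movement and activation followed. Of 36 integrin and actin regulator genes, 23 were over 2-fold higher in gata2a+ runx1- cells, against 3 in gata2a- runx1+ cells (median log2 ratio -1.78). The small GTPase gene rac2 was at 39.9 and 281 RPM and the cortactin-like gene hcls1 at 41.1 and 299 RPM. The 3 on the other side were an ITGB1 gene (29.0 and 2.96 RPM), a FERMT3 gene for a kindlin (299 and 92.3 RPM), and PLEK (200.1 and 91.0 RPM), which encodes pleckstrin of platelets. The second FERMT3 gene was at 81.5 and 124 RPM, within 2-fold. Of 20 innate sensing genes, 16 were over 2-fold higher in gata2a+ runx1- cells (median -1.83), among them the flagellin receptor gene tlr5b (0 and 21.6 RPM), and 9 of 16 interferon response genes were (median -1.32). Of 33 immediate early genes, which respond within minutes to stimulation and to handling of cells, 23 were over 2-fold higher there (median -1.34), such as JUN at 6.46 and 71.3 RPM and DUSP1 at 231 and 858 RPM. The part of handling in these values was not tested.

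Genes of antigen presentation leaned toward gata2a+ runx1- cells in both classes, with medians of -0.73 for class II and -0.67 for class I on the log2 scale. Of 12 class II genes, with 75% of the symbols matched, 5 were over 2-fold higher in gata2a+ runx1- cells and 1, rfx5 (15.7 and 3.34 RPM), in gata2a- runx1+ cells. The class II activator gene ciita was at 11 and 157 RPM and the invariant chain gene cd74a at 344 and 2402 RPM, whereas their cofactors of general transcription, such as NFYA (8.04 and 7.04 RPM), differed little. Of 20 class I genes, 6 (30%) were over 2-fold higher in gata2a+ runx1- cells, near the 23.7% of all members. The class I light chain gene b2m was at 828 and 1091 RPM, and the 2 of these 6 with the largest ratios were CALR and calr3a, calreticulin genes that also stand on the endoplasmic reticulum list.

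Markers of cells outside the blood were read in gata2a+ runx1- cells. Of 12 stromal members, 11 were over 2-fold higher there, against 1 in gata2a- runx1+ cells, with summed levels of 436.5 and 805 RPM. The collagen gene COL1A2 was at 0.61 and 116 RPM, decorin (DCN) at 0 and 93.3 RPM, and CXCL12, the chemokine of marrow stroma, at 0 and 126 RPM. The member on the other side was an FN1 gene for fibronectin, at 359.9 and 6.79 RPM, which made up most of the summed level in gata2a- runx1+ cells. Of 23 endothelial members, 15 were over 2-fold higher in gata2a+ runx1- cells (median log2 ratio -2.82). The defining endothelial genes kdrl, for a VEGF receptor, and cdh5, for VE-cadherin, were at 85.6 and 14.7 RPM there and had no read in gata2a- runx1+ cells. The 4 endothelial members on the other side were tal1, FLI1, and both AQP1 genes, which blood cells also use. The summed levels were 1841 and 573 RPM, and only that of gata2a- runx1+ cells rests largely on tal1 and FLI1. The part of stromal and endothelial cells in the other differences was not tested. The 7 kidney tubule members did not point to 1 population, with 2 over 2-fold higher in each. That list held 33 genes, most of them under the limit, and 1 of the members higher in gata2a+ runx1- cells was gata3, also a T and NK list gene. Whether tubule cells were present was not tested.

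Energy metabolism differed little between the populations. Of 68 nuclear genes for subunits of oxidative phosphorylation, 63 lay within 2-fold (median log2 ratio 0.18), and the 5 that were over 2-fold higher in gata2a- runx1+ cells were COX6A1, COX5B, ndufv3, atp5f1e, and ndufc2, all at or under 34.2 RPM. All 12 mitochondrially encoded genes lay within 2-fold, 10 of them lower in gata2a- runx1+ cells (median -0.44). Of 9 redox enzymes of red cells, 7 lay within 2-fold, such as catalase (CAT) at 242 and 243 RPM, and prdx1 (4.51 and 29.0 RPM) and GSR (39.2 and 137 RPM) were higher in gata2a+ runx1- cells.

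**Figure D4:**
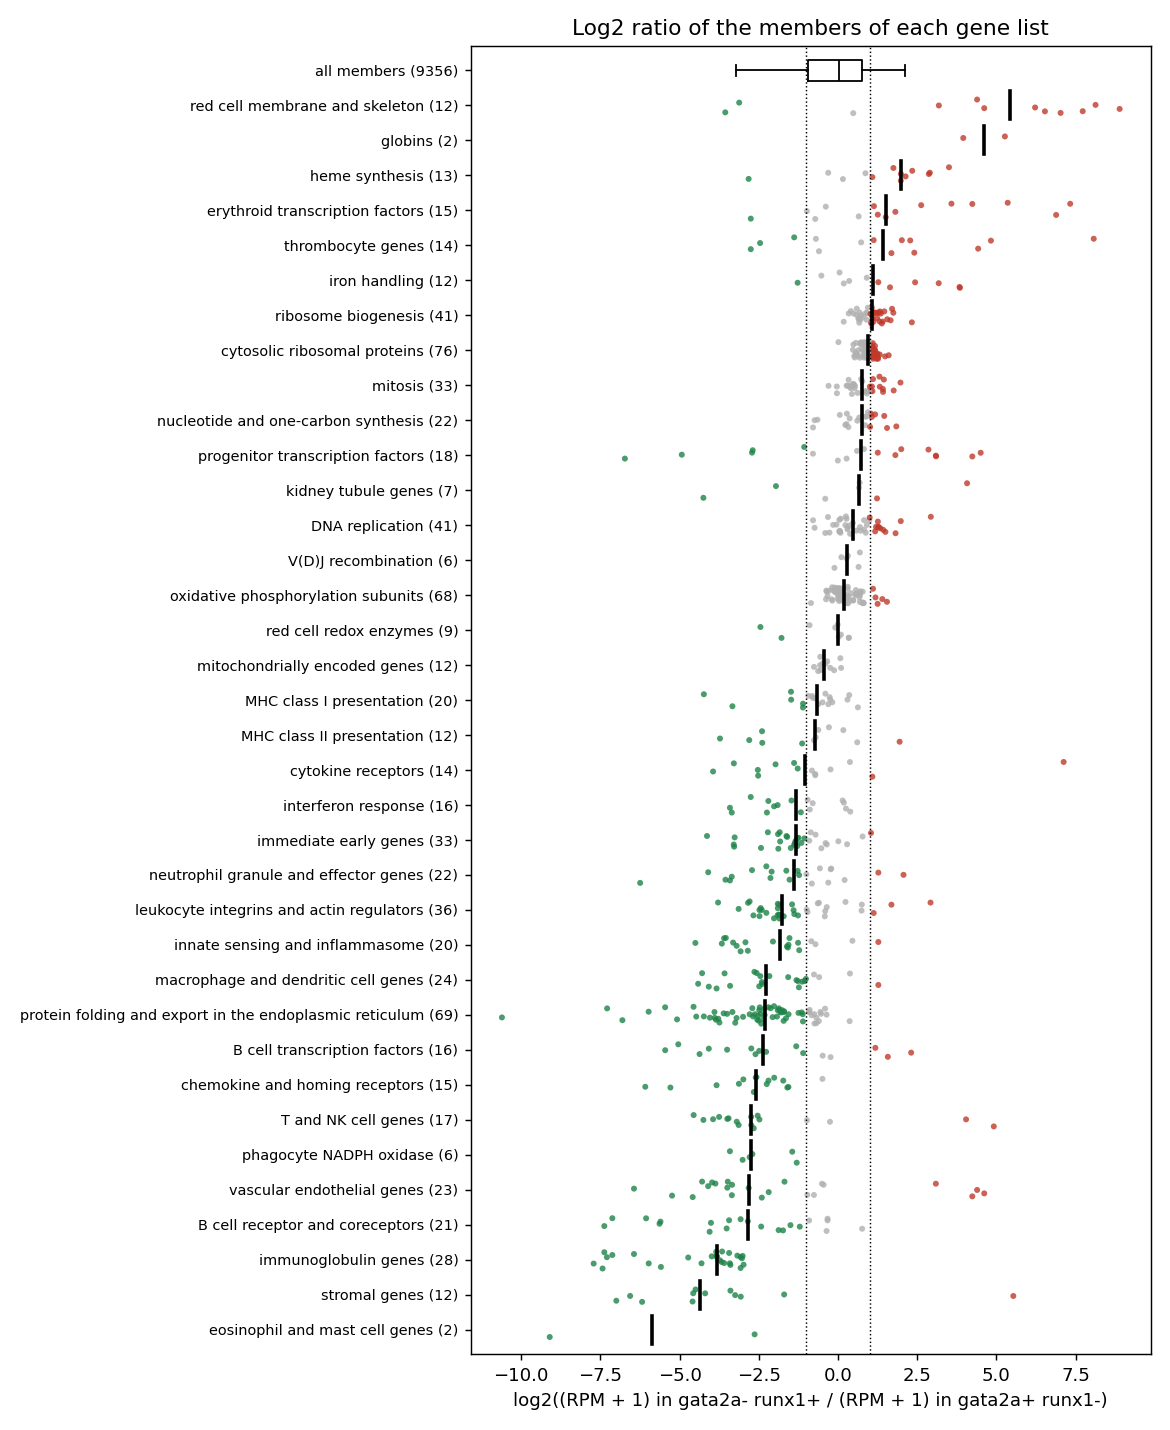
Log2 ratio of RPM + 1 for each member (points) of the 36 gene lists, positive when higher in gata2a- runx1+ cells, with the number of members in parentheses, 1 library per population. Bars mark list medians, dotted lines mark 2-fold, red and green points lie beyond it, and the box at the top gives the median, quartiles, and 5th and 95th percentiles of all 9356 members. List medians run from 5.42 for the red cell membrane genes to -5.86 for the 2 eosinophil and mast cell genes.

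The limit of 5 RPM left some genes close on either side. Just inside, at 5 RPM in gata2a- runx1+ cells, were USB1, CHN2, CD82, NKD1, and emilin1a, at 3.71, 0, 2.96, 3.95, and 0 RPM in gata2a+ runx1- cells. Just outside, at 4.94 RPM in gata2a+ runx1- cells, were SCARA3, cplx2a, and CDKN1B, at 0, 1.71, and 4.02 RPM in gata2a- runx1+ cells. Differences were more frequent among members of low level, with 24.2% and 32.8% over 2-fold in the respective directions among the 2621 members with a mean under 10 RPM, against 12.1% and 21.8% among the 560 members with a mean of 250 RPM or more. The limit itself favours this, since a member with a mean under 5 RPM reached the limit only in the library where it was higher. No conclusion about genes of low level is drawn from these shares.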

How the data were processed

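The authors amplified cDNA of the sorted cells with poly-A priming and PCR, mapped the reads and counted them on genes, and deposited RPM per gene, rounded to 2 decimals. The submitters' processing notes name HISAT2 2.1.0, Subread 1.6.4, and GRCz11. The annotation release, the use of strand, and the treatment of reads with several matches are not given in the sources used here. Of the deposited RPM values, 100% in each library were whole multiples of 1 read (within 0.0410 and 0.0405 reads), which gave the reads behind them. The library of cells with both reporters was not used here.

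The log2 ratio used a pseudocount of 1 RPM, and a gene was counted in a direction when this ratio passed 2-fold. Intervals are exact binomial (Clopper-Pearson) limits of the split of a gene's reads. Two-sided Fisher's exact tests of the recovered reads with Benjamini-Hochberg adjustment, which compare the libraries and not the populations, passed 0.05 for 10207 of 18637 genes with a read and 7458 of the members. Members, rule, and gene lists were chosen with earlier results of these data known, and the endoplasmic reticulum list after the values were seen. The genes named are the 15 with the largest ratio and a non-provisional symbol in each direction, the 5 genes on each side of the limit, and the list members, and others are named as chosen after their values were seen. Some genes given by this rule are not reported here. Of 1169 list symbols, 1098 matched a gene in a table of identifiers and symbols, directly, in human form, or through RefSeq synonyms of GRCz12tu. The results were recomputed with another pseudocount, limit on RPM, or fold, without the most read genes, and with TMM factors (edgeR 4.0.16), DESeq2 1.42.0 size factors (R 4.3.3), and the reads test (scipy 1.17.1). No sequence table or genome was used here.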

Additional observations from a re-analysis of the deposited data

How the results depend on the processing

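With 1 library per population, no leave-one-out fit was run. No paired analysis was possible because each population has 1 library. The 1751 genes over 2-fold higher in gata2a- runx1+ cells and the 2222 genes over 2-fold higher in gata2a+ runx1- cells changed in number mostly with the set of genes and the limit. With a minimum of 1 RPM or no minimum, the counts were 2478 and 3412, with a minimum of 20 RPM they were 1022 and 1241, and with a limit of 4-fold they were 516 and 1141. Under the other settings the counts lay within 1.5 times of these, between 1228 and 2075 and between 1780 and 2479. Every gene of the 1751 and of the 2222 also passed Fisher's exact test of reads, and every one had a counting interval above 1, a condition chosen after seeing the data. At this depth both results follow from the limits on RPM and fold, so they are no check of the calls. The count was larger toward gata2a+ runx1- cells under each of these settings. Of 3926 log2 ratios of named genes under other settings, 0 changed sign among called genes, and with a pseudocount of 5 RPM, 36 of 458 called genes no longer passed 2-fold. Of 792 list counts, 74 moved by over 1.5 times, 27 of them at 4-fold and 18 at a minimum of 20 RPM. The median factor of the counting interval was 1.251, so that depth limits single genes of a few RPM, whereas differences between fish or sorts were not measured.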

Other observations

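Duplicated genes, in part a remnant of the genome duplication in the ancestor of bony fishes, were also compared copy by copy. The origin of each pair was not tested. Pairs were member genes that share 1 human symbol or differ only in a last letter a or b, chosen after the values were seen, and some may share reads. Of 428 such pairs, 159 had both copies within 2-fold, and 165 had 1 copy over 2-fold and the other within 2-fold. Both copies were over 2-fold higher in gata2a- runx1+ cells in 16 pairs and in gata2a+ runx1- cells in 57 pairs. In 31 pairs the copies were over 2-fold in opposite directions. Of all members, 18.7% and 23.7% exceeded 2-fold in the respective directions. Whether opposite pairs were more frequent than among unrelated genes was not tested, and the pairs below are examples only. The FN1 genes for fibronectin were the pair farthest apart of those named here, with ENSDARG00000006526 at 359.9 and 6.79 RPM (gata2a- runx1+ first, as throughout, 53.0-fold, 40.6 to 70.5) and ENSDARG00000019815 at 0.24 and 28.4 RPM (117-fold in the other direction, 31.9 to 968). The Meis1 genes were split in the same way, and so were the genes of the Notch1 receptor, with NOTCH1 ENSDARG00000052094 at 5.12 and 0 RPM and ENSDARG00000103554 at 2.07 and 10.38 RPM. The protocadherin genes under PCDH10 were at 44.5 and 0.49 RPM and at 2.07 and 5.81 RPM, and the signalling regulators rgs3b and rgs3a were at 19.2 and 0.12 RPM and at 5.97 and 43.0 RPM. Among the integrin genes, 1 ITGB1 copy was at 29.0 and 2.96 RPM and another at 6.95 and 18.0 RPM. Further ITGB1 genes were under the limit, at 1.34 and 0.25 RPM and at 0.37 and 1.61 RPM.

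Some tandem families lay on 1 side. All 6 mfap4 members were over 2-fold higher in gata2a+ runx1- cells, with summed levels of 7.56 and 5421 RPM, as were all 9 spink2 members, which encode small protease inhibitors (1.70 and 987 RPM), and all 3 c3a members (0.85 and 3980 RPM). These families were also chosen after the values were seen, and reads of similar copies may be shared among them. Other genes chosen in this way were blood genes high in gata2a- runx1+ cells, such as blf, a zinc finger gene needed in early zebrafish blood formation (532 and 8.77 RPM), hemgn, which encodes the nuclear protein hemogen (164 and 1.73 RPM), and tubb1, the tubulin of thrombocytes (21.4 and 0 RPM). The lymphatic growth factor gene VEGFC was at 57.1 and 0 RPM. On the other side, the complement regulator gene cfh was at 2.92 and 879.7 RPM and the creatine kinase gene CKB (ENSDARG00000043257) at 39.9 and 1697 RPM.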
